A study of Mus musculus with 2756 samples.

Results

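The subject here is a set of 36 genes for the synaptic vesicle cycle and for the contact between the 2 sides of a synapse, followed through the first days of neurons in the mouse neocortex before birth. The genes were taken from a list of synapse genes and kept where the deposited count table holds them, and the table holds all 36 among its 16441 genes. Of these, 22 act before the synaptic cleft (presynaptic) and 14 behind it (postsynaptic). The rule uses no measured value, but the list itself was drawn up with earlier results of these data known.

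The cells came from the presumptive somatosensory cortex of mouse embryos whose dividing cells at the ventricle had been labelled with FlashTag, a fluorescent dye taken up during mitosis and diluted by later divisions. Injection of the dye took place on 1 of 4 embryonic days, named E12, E13, E14 and E15, and cells were collected 1, 24 or 96 h afterwards, so there were 12 conditions, none of which carries a further treatment. The labels give no strain, genotype, animal or replicate, so a condition is 1 sample, and its cells may come from pooled embryos. The gate kept the brightest cells, which are those with the fewest divisions since labelling. The groups used below were sums over the cells that the authors' clusters call apical progenitors (AP, dividing at the ventricle), basal progenitors (BP, dividing away from it), neurons of about 1 day of age (N1d), neurons of about 4 days (N4d), astrocytes (Astro) and interneurons (IN).

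A neuron releases transmitter when a vesicle docks at the active zone and fuses with the cell membrane. Fusion is driven by SNARE proteins on vesicle and membrane, is held ready by complexins and is triggered by synaptotagmins that sense calcium, and dynamins then pinch the membrane off again. Across the cleft, neurexins bind neuroligins and other adhesion proteins, and scaffold proteins such as the Dlg, Shank and Homer families hold receptors in place. Cortical neurons born at the ventricle spend their first days migrating and growing an axon, before most of their synapses form.

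Each condition held 128 to 268 cells of the AP, BP, N1d and N4d classes and 46.1 to 98.0 M counts in them. At 1 h AP cells were 95.8%, 97.1%, 89.6% and 70.8% of all cells from E12 to E15. The E15 sum of that time also held 32 BP, 10 N1d and 13 N4d cells. A 1 h level in sums over the 4 classes is therefore not a level of AP cells alone. The collection time moved the cell classes with it. The summed level of 6 excitatory neuron markers lay between 35.2 and 122 CPM (counts scaled to an equal library total) at 1 h, between 339 and 425 CPM at 24 h and between 1985 and 3732 CPM at 96 h. The 8 AP markers lay between 2405 and 5676 CPM at 1 h, between 1130 and 3322 CPM at 24 h and between 392 and 1098 CPM at 96 h. Interneuron markers, which should be absent from these sums, reached 33.8 CPM at most at 1 h, 7.86 CPM at 24 h and 86.3 to 220 CPM at 96 h, and microglia markers never passed 3.80 CPM. A change in a sum over cells can come from more cells of a type or from more RNA per cell, and these cannot be told apart in the sums. Each run code in the cell names holds 1 collection time, so collection time and run cannot be told apart.

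Promoter windows, from 250 bases before to 50 bases after a gene's start in RefSeq on GRCm38.p6, were found for 26 of the 36 genes. They were searched on both strands for TGACGTCA (the cyclic AMP response element), for CAGCTG and CAGATG (E-boxes, the kind of site that neuronal bHLH factors read) and for CAGCACC and GGACAG (the left and right arms of the RE1 site of the neuronal repressor REST). TGACGTCA was in the windows of Syn1, Clstn2 and Clstn3, which is 11.5% of the 26 genes against 2.03% of 27025 genes with a window. CAGCTG was in 10 of the 26 (38.5%, against 18.3% of all genes), CAGATG in 5 (19.2%, against 19.2%), CAGCACC in 4 (15.4%, against 8.14%) and GGACAG in 6 (23.1%, against 24.7%). A gene counted if any of its windows held the motif. Some genes had more than 1 window (32851 windows for the 27025 genes), and the shares were not adjusted for that number. CAGCACC followed after 2 bases by GGACAG, the joined RE1 form, was in none of the 26 and in 0.0407% of all genes. Below are the windows of 2 genes that rose between 24 and 96 h and hold TGACGTCA, and of 2 genes that rose between 1 and 24 h and hold CAGCTG, 5′ to 3′ on the gene's strand, with the motif matches in capitals (none of these windows holds the right RE1 arm). In Syn1 the first 2 matches in capitals are CAGCACC and the third is TGACGTCA.
Syn1 chrX:20920869-20921168, minus strand: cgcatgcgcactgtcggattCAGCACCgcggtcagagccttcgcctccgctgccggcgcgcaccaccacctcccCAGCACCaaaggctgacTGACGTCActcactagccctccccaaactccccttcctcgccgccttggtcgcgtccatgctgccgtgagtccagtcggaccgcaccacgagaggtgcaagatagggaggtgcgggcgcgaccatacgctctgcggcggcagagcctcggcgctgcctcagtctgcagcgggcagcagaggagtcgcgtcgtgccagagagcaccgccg
Clstn2 chr9:98033118-98033417, minus strand: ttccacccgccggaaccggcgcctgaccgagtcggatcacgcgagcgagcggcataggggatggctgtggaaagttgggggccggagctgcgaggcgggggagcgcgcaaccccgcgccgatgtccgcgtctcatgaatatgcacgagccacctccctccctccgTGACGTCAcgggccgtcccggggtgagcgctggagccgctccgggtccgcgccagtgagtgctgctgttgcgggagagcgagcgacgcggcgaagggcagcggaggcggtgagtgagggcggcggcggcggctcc
Cplx2 chr13:54302306-54302605, plus strand: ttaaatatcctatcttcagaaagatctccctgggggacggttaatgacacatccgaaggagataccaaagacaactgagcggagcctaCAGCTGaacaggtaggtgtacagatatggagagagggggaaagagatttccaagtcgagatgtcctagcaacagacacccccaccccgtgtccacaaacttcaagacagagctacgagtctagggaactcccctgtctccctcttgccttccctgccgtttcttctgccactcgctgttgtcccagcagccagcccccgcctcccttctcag
Stx1a chr5:135023232-135023531, plus strand: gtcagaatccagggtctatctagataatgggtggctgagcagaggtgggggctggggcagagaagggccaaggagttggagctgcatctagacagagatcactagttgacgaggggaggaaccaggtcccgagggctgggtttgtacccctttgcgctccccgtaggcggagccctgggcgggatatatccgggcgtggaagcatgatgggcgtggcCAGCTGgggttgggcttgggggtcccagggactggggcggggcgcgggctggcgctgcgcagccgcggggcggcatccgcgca
TGACGTCA starts 159 bases before the start of Syn1 and 85 bases before that of Clstn2. CAGCTG starts 33 bases before the start of Stx1a and 162 bases before the RefSeq start used for the Cplx2 window. That Cplx2 start lies far upstream of chr13:54371349, where the listed position of the gene begins. These matches are letters in a window and no binding was measured here.

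Between 1 and 24 h after labelling, when AP cells gave way to young neurons, 10 of the 21 tested presynaptic genes rose and none fell, against 11.4% of all 10210 tested genes that rose and 7.76% that fell. The 10 were the membrane SNARE genes Snap25 and Stx1a, the vesicle SNARE gene Vamp2, the complexin gene Cplx2, the synaptotagmin gene Syt4, the vesicle protein genes Syn2, Syp, Sv2a and Svop, and the active zone gene Bsn. Of the 11 tested postsynaptic genes 1, the scaffold gene Dlg2, rose and none fell. The median log2 change was 1.48 over the 21 presynaptic genes and 0.37 over the 11 postsynaptic genes, beside -0.0032 over all genes tested. A rise or fall here means an adjusted p under 0.05 in edgeR's quasi-likelihood test. The filter of at least 10 CPM in 3 of the 12 sums left out Sv2b, Clstn3, Dlg4 and Nrgn, whose levels were at most 11.0 CPM in any sum. A gene can pass that filter through the time when it is high, so these counts describe the genes that passed. In sums over the main class alone (N4d at 96 h, N1d at 24 h, AP at 1 h), 14 presynaptic and 4 postsynaptic genes rose, the added ones being Syt1, Cplx1, Pclo, Nrxn2, Clstn2, Nlgn2 and Shank2. Calls over all genes were also more frequent in that fit: 1696 of 10195 genes rose and 1553 fell, against 1167 and 792 of 10210 in the fit above. Without E12 at 1 h the presynaptic count was 5, without E12 at 24 h it was 6, and without E15 at 1 h the postsynaptic count was 2. Over all genes 864, 900 and 1161 rose in these fits, in that order.

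Between 24 and 96 h, when young neurons gave way to 4-day neurons, 11 of the 21 presynaptic and 9 of the 11 postsynaptic genes rose, and 1 presynaptic gene fell, against 11.7% of all tested genes that rose and 12.5% that fell. The presynaptic genes that rose were Cplx1, Syt1, Syt4, Syn1, Sv2a, Pclo, Rims1, Dnm1, Dnm3, Nrxn2 and Nrxn3, and the one that fell was Syn2. The postsynaptic genes that rose were Nlgn1, Nlgn3, Clstn1, Clstn2, Lrfn5, Lrrtm2, Dlg2, Shank2 and Homer1. The median log2 change was 1.58 over the presynaptic and 2.00 over the postsynaptic genes, beside -0.027 over all genes tested. The contrasts of 24 h against 1 h and of 96 h against 24 h share the 24 h sums, so each gene's pair of values is given side by side and no relation between the contrasts is drawn from them. Without E14 at 96 h the postsynaptic count was 5. With the 6 run codes as samples in place of the 12 conditions, it was 4 and the presynaptic count was 6. Over all genes 824 of 10024 rose without E14 at 96 h, and 561 of 9153 with run codes as samples.

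**Figure D1:**
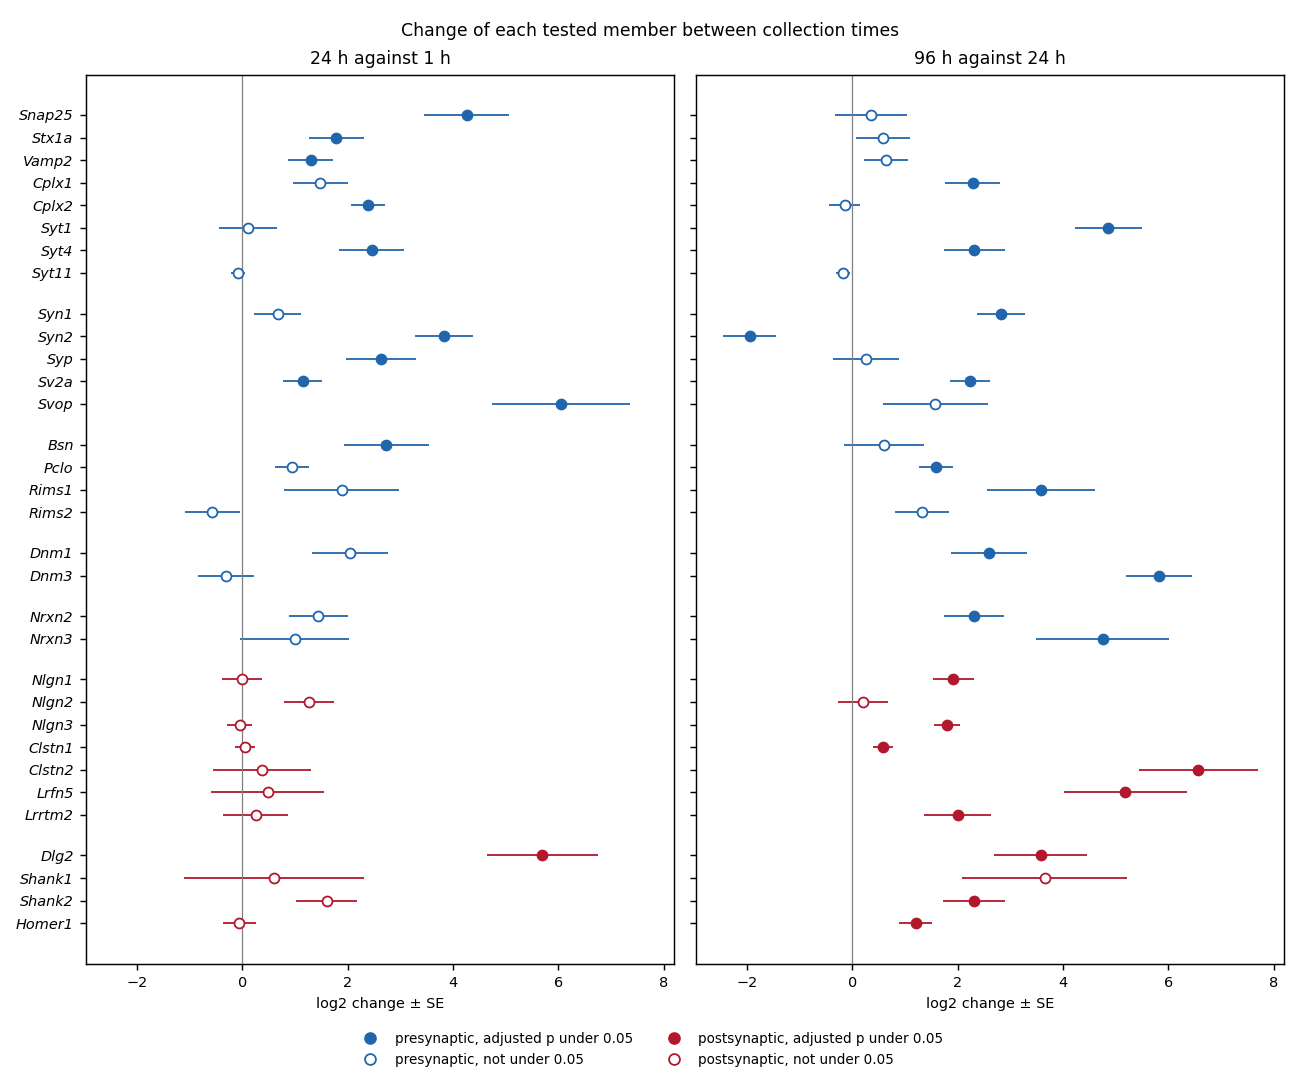
Fitted log2 change with its standard error for the 32 tested genes, 24 h against 1 h on the left and 96 h against 24 h on the right, by role from SNARE genes at the top to scaffold genes at the bottom. Filled points have an adjusted p under 0.05: 10 presynaptic (blue) and 1 postsynaptic (red) on the left, 12 and 9 on the right, with Syn2 the one filled point below 0.

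Among the fusion genes, Cplx2, a complexin that clamps and readies the SNARE complex, had the smallest p at the first step. Its level in the lineage sums (AP, BP, N1d and N4d cells together) was 15.9 CPM at E12, 20.8 at E13, 23.9 at E14 and 54.7 at E15 at 1 h, and 159, 170, 110 and 123 CPM in the same order at 24 h. Every 24 h value lay above every 1 h value. The log2 change was 2.39 ± 0.32 (SE, adjusted p = 0.000286). At 96 h the values were 104, 117, 163 and 122 CPM, which overlapped those of 24 h with E12 just below them, and the log2 change of 96 h against 24 h was -0.15 ± 0.30 (adjusted p = 0.756). Snap25, which was chosen for display after its values were seen, had the same course: 4.45 ± 5.25 CPM (SD, n = 4 days) at 1 h, 83.5 ± 24.6 CPM at 24 h and 104 ± 27.7 CPM by 96 h, with a log2 change of 4.26 ± 0.81 at the first step (adjusted p = 0.00279) and 0.36 ± 0.68 at the second (adjusted p = 0.735).

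Syt1, the calcium sensor of fast transmitter release, had most of its change at the second step. At 1 h its level was 10.1, 2.90, 1.35 and 10.7 CPM from E12 to E15, and at 24 h it was 5.88, 5.78, 7.86 and 7.69 CPM. At 96 h it was 272, 162, 274 and 74.5 CPM, so each day was far above all 24 h values, and E15 was the lowest of the 4. The log2 change was 0.11 ± 0.54 at the first step (adjusted p = 0.915) and 4.86 ± 0.64 at the second (adjusted p = 0.000222). In main class sums Syt1 also rose at the first step (log2 change 1.60, adjusted p = 0.0181), where AP cells held 1.48 to 5.31 CPM and N1d cells 6.81 to 13.8 CPM. Syt4, a synaptotagmin that binds calcium weakly and sits on other secretory vesicles, rose at both steps, from 20.0 ± 16.4 CPM to 98.6 ± 37.4 and 496 ± 138 CPM (SD, n = 4 days). Its second rise was not past the threshold in main class sums (adjusted p = 0.0634), and its first was not without E12 at 1 h (adjusted p = 0.0651). Over the other fusion genes, Stx1a and Vamp2 rose at the first step by 1.79 ± 0.52 and 1.30 ± 0.43 on the log2 scale, and Cplx1 rose at the second by 2.28 ± 0.53. Adjusted p-values were 0.0281, 0.0485 and 0.00803 in that order. The Cplx1 call was lost in main class sums (log2 change 1.77, adjusted p = 0.183) and with equal weight per cell (adjusted p = 0.0557). The Stx1a call was lost in 4 of 12 fits that each left out a condition (E12 or E13, at 1 h or 24 h), and the Vamp2 call in 11 of 12, all but the fit without E15 at 1 h. With injection day as a replicate block Vamp2 also missed the threshold (adjusted p = 0.0678). The same held for Vamp2 with DESeq2 size factors, with all cells and without the filter. With run codes as samples the calls of Stx1a and Vamp2 were both lost.

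Syt11, a synaptotagmin that does not bind calcium, was already high in dividing cells. In the lineage sums it was 335, 434, 527 and 656 CPM from E12 to E15 at 1 h, 413, 463, 463 and 483 CPM at 24 h, and 324, 415, 373 and 457 CPM at 96 h. The times overlapped, and the log2 change was -0.08 ± 0.14 at the first step and -0.18 ± 0.14 at the second (adjusted p = 0.718 and 0.367). A read of Syt11 was found in 97.8% of the 683 AP cells of 1 h, in 95.7% of the 578 N1d cells of 24 h and in 90.3% of the 675 N4d cells of 96 h, after each cell was thinned to 100000 counts. In the Astro cluster at 96 h, of which only E15 had 10 cells or more (54 cells), Syt11 was at 2128 CPM, beside 411 CPM in the N4d cells of that day.

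**Figure D2:**
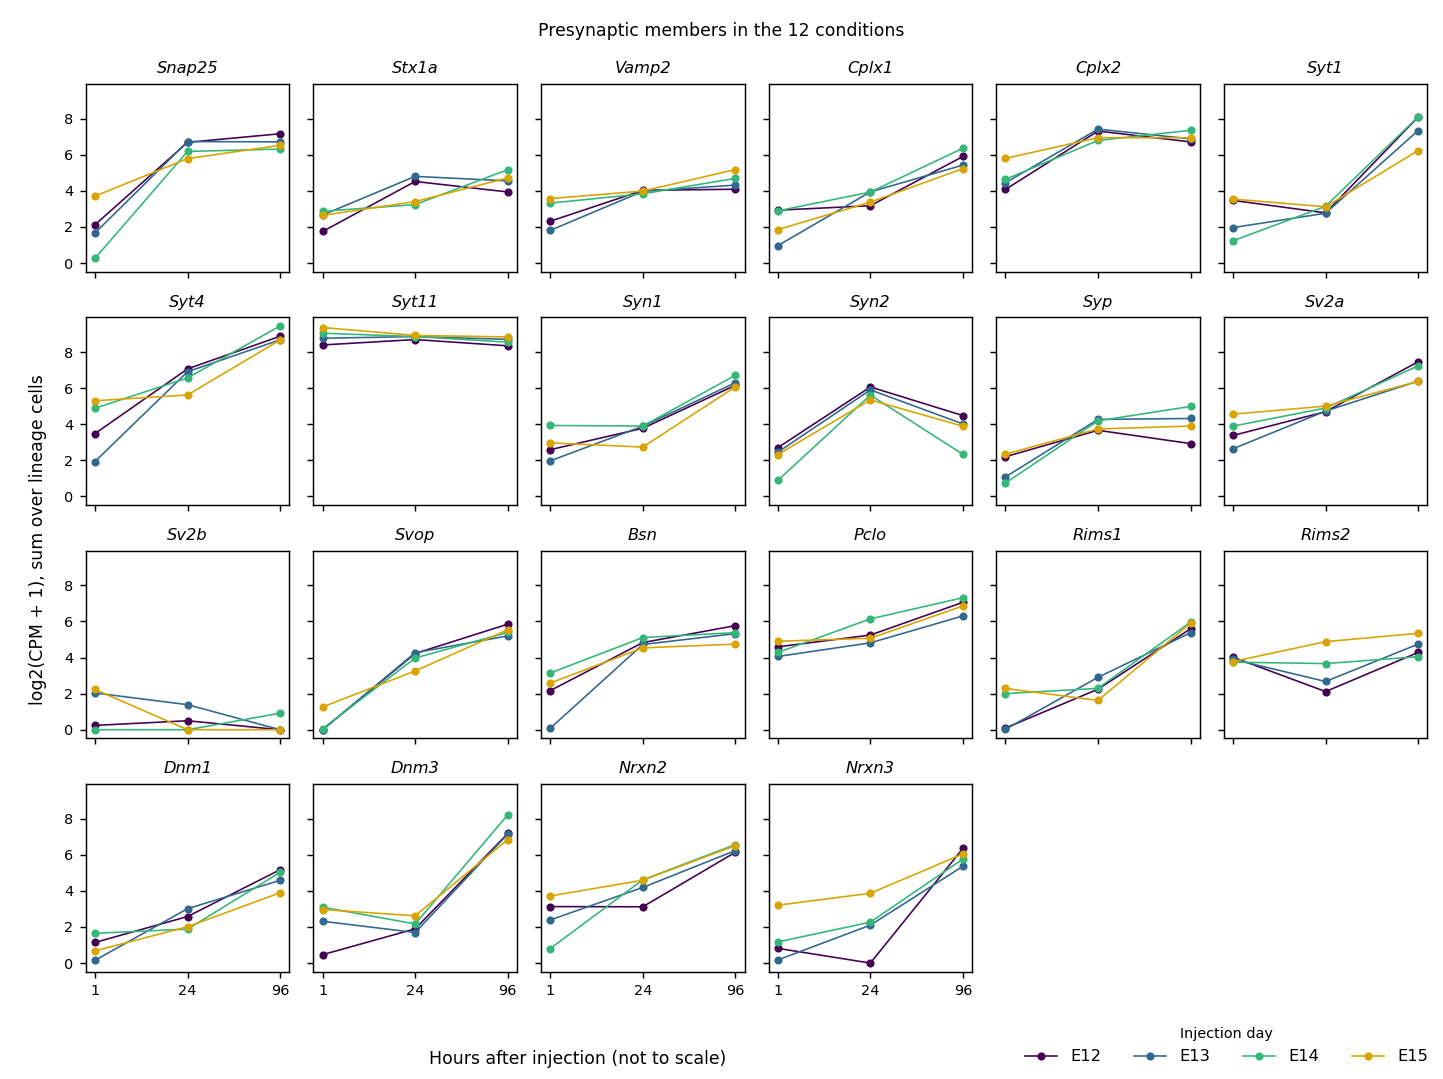
Level of the 22 presynaptic genes as log2(CPM + 1) in the lineage sums at 1, 24 and 96 h, with 1 line for each injection day. Snap25, Cplx2 and Syn2 climb by 24 h, Syt1 and Dnm3 only after it, Syt11 stays high throughout and Syn2 is lower again at 96 h on all 4 days.

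Among the vesicle proteins, both synapsins, which tether vesicles to each other and to the cytoskeleton, went opposite ways at the second step. Syn2 was at 5.49, 4.45, 0.847 and 4.00 CPM from E12 to E15 at 1 h, at 65.9, 58.9, 48.0 and 39.7 CPM at 24 h, and at 21.3, 15.2, 4.04 and 13.8 CPM at 96 h. The 3 times did not overlap between 1 h and 24 h or between 24 h and 96 h. Its log2 change was 3.83 ± 0.55 at the first step (adjusted p = 0.000428) and -1.95 ± 0.51 at the second (adjusted p = 0.0143), and it was called at both steps in all 20 alternative fits. The summed level of 3 markers of Cajal-Retzius cells, early neurons of the cortical surface, was also highest at 24 h. It was 0.287 to 13.1 CPM at 1 h, 25.3 to 78.3 CPM at 24 h and 4.93 to 24.4 CPM at 96 h. The markers did not all share this course. Mean levels at 1, 24 and 96 h were 1.68, 26.0 and 3.16 CPM for Nhlh2 and 2.89, 18.7 and 9.18 CPM for Reln. At E12 Reln was higher at 96 h (21.8 CPM) than at 24 h (19.3 CPM). Lhx5 was near 0 and highest at 96 h (means 0.088, 0.086 and 0.253 CPM). The part of Cajal-Retzius cells in the course of Syn2 was not tested. A read of Syn2 was found in 2.12% of the AP cells of 1 h, in 26.7% of the N1d cells of 24 h and in 8.34% of the N4d cells of 96 h, thinned as above. Syn1 was at 5.01, 2.92, 14.3 and 6.83 CPM at 1 h, at 12.7, 13.8, 13.9 and 5.65 CPM at 24 h, and at 70.3, 77.7, 104 and 66.2 CPM at 96 h. All 96 h values lay above all earlier ones, and the log2 change was 0.67 ± 0.44 at the first step (adjusted p = 0.318) and 2.82 ± 0.46 at the second (adjusted p = 0.00103).

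The remaining vesicle genes were Syp, the synaptophysin gene, Sv2a and Sv2b, which encode the transporter-like vesicle glycoproteins SV2A and SV2B, and Svop, a relative of SV2. Syp and Svop rose at the first step by 2.64 ± 0.67 and 6.06 ± 1.31 on the log2 scale (adjusted p = 0.0143 and 0.00623). The Svop value is measured against a 1 h level near 0: 0, 0, 0.0403 and 1.40 CPM from E12 to E15, where no read allows up to 0.0496 CPM at E12 and 0.0421 CPM at E13 (3 counts of the library, counting error only). Sv2a rose at both steps, by 1.15 ± 0.37 and 2.24 ± 0.38 (adjusted p = 0.0459 and 0.00136). Its first call was lost in 9 of 12 fits that left out a condition. That call was also lost with DESeq2 size factors, with all cells, with equal weight per cell and without the filter. Sv2b was at 3.70 CPM or less in all 12 sums.

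The active zone proteins Bassoon and Piccolo are large scaffolds that arrive at new release sites together on transport vesicles. Bsn was at 3.49, 0.0561, 7.83 and 5.01 CPM from E12 to E15 at 1 h, at 27.4, 25.4, 33.5 and 22.2 CPM at 24 h, and at 53.4, 39.1, 40.8 and 25.8 CPM at 96 h. Its log2 change was 2.74 ± 0.81 at the first step (adjusted p = 0.0303) and 0.60 ± 0.76 at the second (adjusted p = 0.599). The first call was lost without E12 at 1 h, without E12, E13 or E14 at 24 h, with all cells and without the filter. Adjusted p was at most 0.0847 in these fits, and the 1 h and 24 h values did not overlap. Pclo was at 23.2, 15.7, 18.5 and 28.9 CPM at 1 h, at 37.0, 27.2, 69.7 and 32.6 CPM at 24 h, and at 133, 78.2, 159 and 115 CPM at 96 h. Its log2 change was 0.94 ± 0.32 at the first step (adjusted p = 0.0542) and 1.58 ± 0.32 at the second (adjusted p = 0.00403). The first change passed the threshold in main class sums (adjusted p = 0.00110) and with injection day as a replicate block (adjusted p = 0.0479). Of the RIM genes, whose proteins link vesicles to calcium channels, Rims1 rose at the second step by 3.58 ± 1.03 (adjusted p = 0.0227) and Rims2 had a log2 change of 1.33 ± 0.52 (adjusted p = 0.0771). The Rims1 call was lost without E12 at 96 h and without E14 or E15 at 24 h (adjusted p = 0.0786, 0.0628 and 0.0628), in main class sums (0.0634) and with all cells (0.05005).

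Both dynamin genes, for the enzymes that cut endocytosed vesicles free, rose at the second step. Dnm3 was at 0.380, 3.98, 7.56 and 6.83 CPM from E12 to E15 at 1 h, at 2.72, 2.23, 3.49 and 5.15 CPM at 24 h, and at 144, 141, 296 and 114 CPM at 96 h, where E14 stood above the other days. Its log2 change was -0.31 ± 0.53 at the first step (adjusted p = 0.730) and 5.82 ± 0.63 at the second (adjusted p = 6.7e-05). Dnm1 had the smaller p of the pair at the first step, with 1.21, 0.112, 2.14 and 0.598 CPM at 1 h and 4.98, 7.08, 2.69 and 3.04 CPM at 24 h. The groups did not overlap, but the log2 change of 2.05 ± 0.72 was not past the threshold (adjusted p = 0.0629). At 96 h Dnm1 was at 35.1, 23.0, 31.6 and 13.9 CPM, and its second change was 2.60 ± 0.72 (adjusted p = 0.0198). That call was lost in 4 of the 12 fits that left out a condition (E12, E14 or E15 at 24 h, or E14 at 96 h), at adjusted p-values from 0.0538 to 0.0562.

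Of the neurexin genes, whose proteins span the presynaptic membrane and bind partners across the cleft, Nrxn2 was at 7.76, 4.24, 0.746 and 12.2 CPM from E12 to E15 at 1 h and at 7.69, 17.3, 23.4 and 23.1 CPM at 24 h. These overlapped, and the log2 change was 1.44 ± 0.56 (adjusted p = 0.0895). At 96 h it was at 69.5, 74.3, 93.9 and 90.1 CPM, above all earlier values, with a change of 2.31 ± 0.57 (adjusted p = 0.0114). Nrxn3 rose at the second step from 5.18 ± 5.86 to 59.9 ± 17.3 CPM (SD, n = 4 days), with a log2 change of 4.75 ± 1.26 (adjusted p = 0.0153). Interneuron clusters held far more Nrxn3 than these sums, as given below, and interneuron markers were higher in these sums at 96 h than at 24 h. Their part in the rise of Nrxn3 was not tested.

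Of the 8 postsynaptic adhesion genes, 6 of the 7 tested rose at the second step and none at the first. Nlgn3, a neuroligin of excitatory and inhibitory synapses, was at 32.6, 20.0, 27.2 and 37.0 CPM from E12 to E15 at 1 h, at 25.5, 31.8, 30.9 and 25.9 CPM at 24 h, and at 85.2, 69.9, 131 and 100.2 CPM at 96 h. The first 2 times overlapped and the third lay above both. Its log2 change was -0.05 ± 0.24 at the first step (adjusted p = 0.922) and 1.79 ± 0.24 at the second (adjusted p = 0.000300), the smallest p among the postsynaptic genes. Nlgn2, the neuroligin of inhibitory synapses, had the smallest p of its group at the first step, with 6.22, 3.96, 4.38 and 5.06 CPM at 1 h and 12.9, 13.8, 10.8 and 10.5 CPM at 24 h. Those groups did not overlap, and the log2 change was 1.27 ± 0.48 (adjusted p = 0.0836). At 96 h it was at 17.3, 6.50, 20.0 and 9.96 CPM, on both sides of the 24 h values (log2 change 0.21 ± 0.47, adjusted p = 0.778).

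The calsyntenins are adhesion proteins of the cadherin type, and calsyntenin-1 also links cargo to the kinesin motor. Clstn1 was the one postsynaptic gene with 50 CPM or more in AP cells. It was at 73.9, 139, 134 and 182 CPM from E12 to E15 at 1 h, at 102, 166, 119 and 158 CPM at 24 h, and at 155, 197, 221 and 218 CPM at 96 h. The log2 change was 0.06 ± 0.19 at the first step (adjusted p = 0.863) and 0.58 ± 0.19 at the second (adjusted p = 0.0406). The second call was lost in 6 of the 12 fits that left out a condition (E12, E14 or E15 at 24 h, and E12, E13 or E14 at 96 h). It was also lost in main class sums, with all cells, without the filter and with run codes as samples. Clstn2 went from 2.34 ± 2.05 CPM at 24 h to 216 ± 42.8 CPM at 96 h (SD, n = 4 days), and Lrfn5, which encodes a leucine-rich repeat adhesion protein, from 4.18 ± 4.75 to 117 ± 65.1 CPM. A read of Clstn2 was found in 1.46% of the AP cells of 1 h, in 2.98% of the N1d cells of 24 h and in 71.8% of the N4d cells of 96 h after thinning. Nlgn1 and Lrrtm2 rose at the second step by 1.92 ± 0.39 and 2.00 ± 0.63 on the log2 scale (adjusted p = 0.00396 and 0.0347). The Lrrtm2 call was lost in 7 of the 12 fits that left out a condition (all but those that left out a 1 h condition or E15 at 96 h), at adjusted p-values from 0.0569 to 0.0980, in main class sums (0.189) and without the filter (0.0574).

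**Figure D3:**
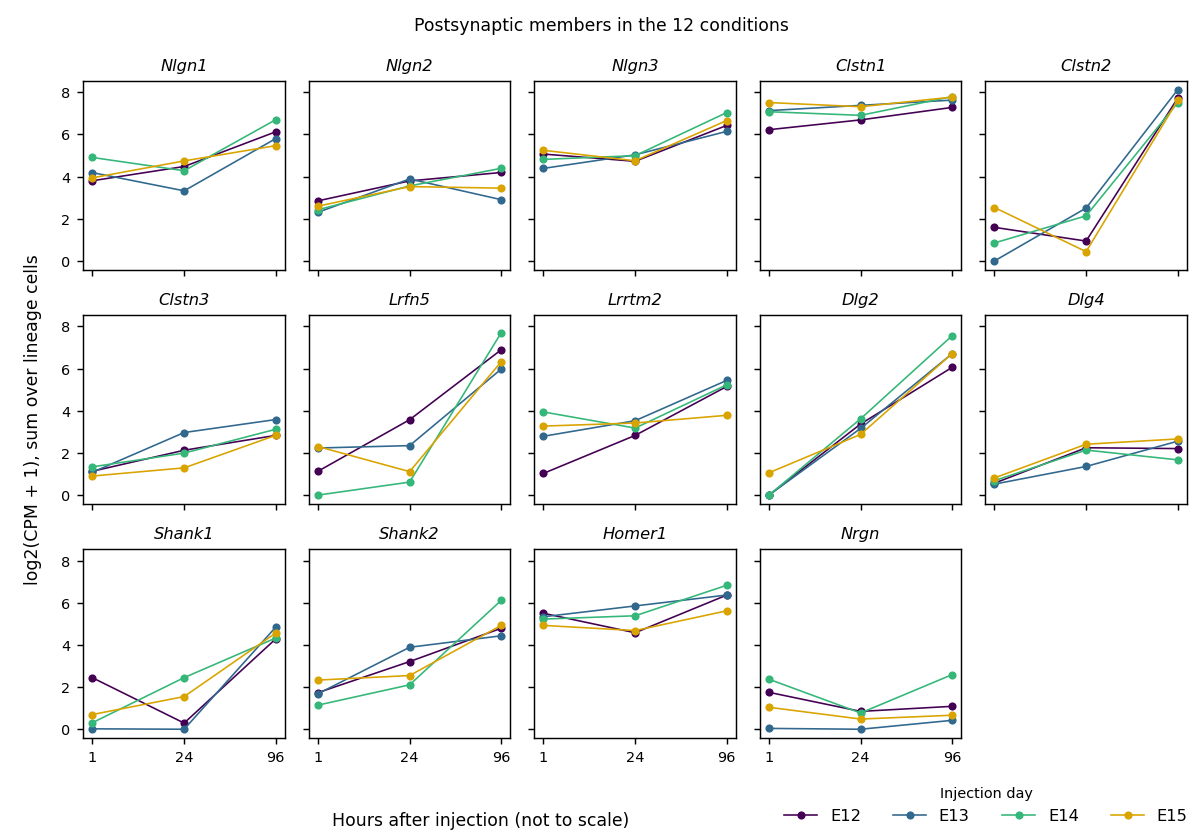
Level of the 14 postsynaptic genes as log2(CPM + 1) in the lineage sums at 1, 24 and 96 h, with 1 line for each injection day. Lrfn5 has at most 10.9 CPM until 24 h and at least 62.1 CPM at 96 h, Clstn2 at most 4.80 and at least 181 CPM, Clstn1 at least 73.9 CPM throughout, and Dlg2 climbs at both steps.

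Among the scaffold genes, Dlg2, which encodes PSD-93, was the one postsynaptic gene that rose at both steps. At 1 h it had no read at E12, E13 and E14 and 1.08 CPM at E15, where no read allows up to 0.0605 CPM in the shallowest of these libraries. At 24 h it was at 9.36, 7.96, 11.3 and 6.35 CPM and at 96 h at 65.8, 104, 188 and 104 CPM from E12 to E15, so no time overlapped another. The log2 change was 5.70 ± 1.06 at the first step, a value that depends on how the fit treats the zeros (adjusted p = 0.00254), and 3.58 ± 0.88 at the second (adjusted p = 0.0113). With interneurons and astrocytes left in the sums neither was past the threshold (adjusted p = 0.0540 and 0.0691), and DESeq2 did not call the second (adjusted p = 0.0705). Shank2 and Homer1, scaffold genes of the excitatory synapse, rose at the second step by 2.31 ± 0.59 and 1.20 ± 0.31 on the log2 scale (adjusted p = 0.0125 and 0.0144), and both calls were lost without E14 at 96 h (adjusted p = 0.0580 and 0.0536), that of Shank2 also without E15 at 24 h (adjusted p = 0.0505). Shank1 had a log2 change of 3.65 ± 1.56 (adjusted p = 0.105). Dlg4, which encodes PSD-95, stayed at or below 5.34 CPM, and Nrgn, the gene of the calmodulin-binding protein neurogranin, at or below 5.03 CPM in all 12 sums.

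The level at 24 h as a percentage of that at 96 h, over the genes with at least 10 CPM at 96 h, had a median of 33.1% over 21 presynaptic genes and 27.2% over 11 postsynaptic genes. In the main class sums the medians were 43.3% and 20.4%. Both lists were wide. Among presynaptic genes the lowest were Dnm3 (1.95%), Syt1 (3.47%) and Rims1 (7.79%), and the highest were Syn2 (391%), Syt11 (116%) and Cplx2 (111%). Among postsynaptic genes they ran from Clstn2 (1.08%) and Lrfn5 (3.57%) to Clstn1 (69.0%) and Nlgn2 (89.2%). These percentages were not tested.

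Other synapse genes, from 2 longer lists that hold none of the 36, moved as follows. Of 40 tested presynaptic genes of the longer list, 16 rose and none fell at the first step, and 15 rose and 2 fell at the second. Of all tested genes, 11.4% rose and 7.76% fell at the first step, and 11.7% rose and 12.5% fell at the second. The smallest p-values at the first step belonged to Rab3a and Rab3c, small GTPases on the vesicle, and to Ptprs, a receptor phosphatase of the presynaptic membrane. Rab3a went from 15.6 ± 9.43 to 216 ± 45.3 CPM (SD, n = 4 days), a log2 change of 3.79 ± 0.38 (adjusted p = 3.9e-05). Rab3c and Ptprs rose by 3.47 ± 0.36 and 0.88 ± 0.12 (adjusted p = 4.9e-05 and 0.000343). At the second step Ptprd, a relative of Ptprs, rose by 2.09 ± 0.26, Syt5 by 2.44 ± 0.38 and Dnajc5, the gene of a vesicle chaperone, by 0.64 ± 0.13 (adjusted p = 0.000175, 0.000700 and 0.00356). Ptprs and Ptprf were the 2 that fell, by 0.40 ± 0.12 and 0.58 ± 0.20 on the log2 scale (adjusted p = 0.0311 and 0.0446).

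Of 29 tested postsynaptic genes of the longer list, 6 rose and 1 fell at the first step, and 12 rose and 2 fell at the second. The shares over all tested genes were again 11.4% that rose and 7.76% that fell, then 11.7% and 12.5%. The scaffold genes Sorbs2 and Dlgap4 and the adhesion gene Slitrk1 rose at the first step by 1.58 ± 0.18, 1.53 ± 0.21 and 3.85 ± 0.79 (adjusted p = 0.000105, 0.000322 and 0.00470). Iqsec1, which encodes an exchange factor for Arf GTPases, fell by 1.15 ± 0.33 (adjusted p = 0.0281). At the second step the genes that rose included Kalrn, whose protein acts on small GTPases in dendritic spines, and Cacng2, whose protein stargazin carries AMPA receptors. They rose by 1.40 ± 0.22 and 4.21 ± 0.86 (adjusted p = 0.000851 and 0.00409). Sorbs2 and Homer3 fell by 0.64 ± 0.18 and 1.22 ± 0.42 (adjusted p = 0.0214 and 0.0471).

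Injection day was followed within 1 class at a time, using N4d cells collected at 96 h, N1d cells collected at 24 h and AP cells collected at 1 h. The slope is the log2 change per embryonic day. In AP cells 1 of 21 presynaptic genes (Svop) and 1 of 11 postsynaptic genes (Dlg2) rose with injection day and none fell, against 0.765% of 10195 genes that rose and 0.226% that fell. Both rest on few reads in E15. Svop had no read in the 181 AP cells of E12 and the 201 of E13, 2 reads in 120 cells of E14 and 88 reads in 213 cells of E15, and 84 of those 88 reads were in 1 cell. Its slope was 4.52 ± 0.41 (adjusted p = 0.000572), and 3.10 ± 0.98 without E15 at 1 h (adjusted p = 0.304). Dlg2 had no AP read before E15 and 21 reads in 6 cells there, 16 of them in 1 cell, with a slope of 4.36 ± 0.63 (adjusted p = 0.0132) that without E15 has no read behind it. With run code as a block neither slope was past the threshold (adjusted p = 0.0674 and 0.156). A count of 0 allows reads in up to 1.66% of the AP cells of E12 and 1.49% of those of E13. In AP cells the unadjusted p was under 0.05 for 10 presynaptic and 2 postsynaptic genes, against 1044 of all 10195 genes. Slopes were above 0 for 16 of the 21 presynaptic and 9 of the 11 postsynaptic genes, against 5228 of all genes. The 2 genes of the AP class with many reads had slopes of 0.34 ± 0.08 (Syt11, adjusted p = 0.0938) and 0.37 ± 0.12 (Clstn1, adjusted p = 0.255).

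In N1d cells 1 presynaptic gene, Rims2, rose with injection day, against 0.206% of all genes that rose and 0.177% that fell, and no other presynaptic or postsynaptic gene passed the threshold. The unadjusted p was under 0.05 for 2 presynaptic genes and 1 postsynaptic gene, against 1309 of all 10195 genes. Rims2 was at 1.30 CPM at E12, 2.20 at E13, 13.8 at E14 and 30.2 at E15, and its reads were in 6 of 176, 5 of 154, 28 of 172 and 41 of 131 cells. The slope was 1.62 ± 0.30 (adjusted p = 0.0479). The call was lost in each of the 12 fits that left out a condition, at slopes between 1.54 and 1.89, and with run code as a block the slope was 0.91 ± 0.56 (adjusted p = 0.989). E12 and E13 shared a run code at 24 h, as did E14 and E15. In AP cells at 1 h, where the codes pair the days otherwise, Rims2 was at 15.7, 14.5, 13.2 and 9.89 CPM from E12 to E15. These AP values come from another class and time, so they cannot separate run from day in N1d cells. In N4d cells at 96 h no member had a slope past the threshold, while 0.0294% of all genes rose with day and 0.0196% fell. DESeq2 called no member there, against 166 of all genes. No presynaptic or postsynaptic gene reached an unadjusted p under 0.05 in the edgeR fit of N4d cells, against 803 of all 10195 genes. The smallest p was that of Syt1, at 302, 165, 281 and 84.9 CPM from E12 to E15, with a slope of -0.45 ± 0.27 (adjusted p = 0.748). The test that the 3 class slopes differ called Svop (adjusted p = 0.00317) and no other member, against 0.216% of all genes, and that call too was lost without E15 at 1 h (adjusted p = 0.363).

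The authors' clusters divide these classes further. They were made from the expression of the same cells, so their levels are a description with no test. A sum over fewer than 10 cells was left out. Cplx2 was high in a progenitor cluster: in BP.late cells at 24 h it was at 536 CPM at E12 (14 cells), 607 at E13 (22 cells) and 170 at E15 (26 cells), beside 160, 134 and 165 CPM in the N1d cells of those days. After thinning, a read of Cplx2 was found in 67.9% of 162 BP cells, 58.7% of 578 N1d cells and 30.7% of 111 AP cells at 24 h, and in 14.7% of 683 AP cells at 1 h. Unthinned, the shares were 82.1%, 73.0%, 55.4% and 21.7%, at median depths of 416230, 330270, 507070 and 319330 counts per cell.

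The cluster N4d.late1 was made up of E14 cells at the 10-cell minimum (135 cells), so the cluster and the day cannot be told apart in it. Its levels were 316 CPM for Lrfn5, 237 for Dlg2, 343 for Dnm3 and 89.3 for Shank2. The other clusters of E14 neurons, N4d.early2 (47 cells) and N4d.late2 (29 cells), held 54.7 and 72.5 CPM of Lrfn5, 139 and 83.0 of Dlg2, 199 and 412 of Dnm3, and 21.8 and 107 of Shank2. N4d.early2 and N4d.late2 were present on all 4 days. Of the 32 members with 10 CPM in 3 of these 8 sums, Syp and Syt11 were higher in N4d.late2 on all 4 days and Vamp2, Cplx1 and Cplx2 lower, while 13.2% of all 9230 genes were higher and 13.3% lower on all 4 days. Syp was at 1.84, 8.90, 20.1 and 4.31 CPM in N4d.early2 from E12 to E15 and at 24.8, 76.1, 42.3 and 17.7 CPM in N4d.late2.

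**Figure D4:**
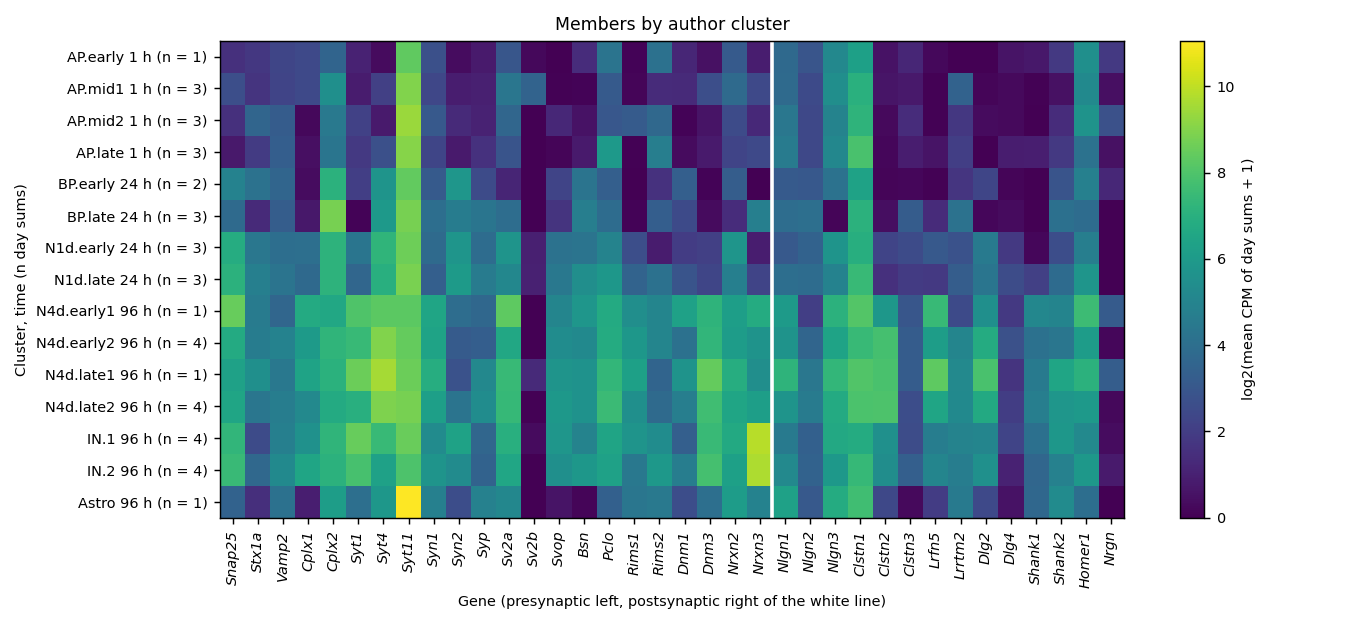
Level of the 36 genes as log2(mean CPM + 1) in the 15 clusters at the time when each was most frequent among labelled cells, averaged over the injection days with at least 10 cells (n day sums). Syt11 and Clstn1 are bright in every row, Nrxn3 is brightest in both interneuron rows, and Cplx2 is brighter in BP.late than in the N1d rows.

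Reads of neuronal genes were also found in classes that are not neurons, and more so at 96 h. After thinning, Syt4 had a read in 3.87% of AP cells at 1 h and in 55.8% of 16 AP cells, 60.6% of 63 Astro cells and 87.1% of 675 N4d cells at 96 h. Snap25 had a read in 16.2% of Astro cells, 22.3% of AP cells and 54.0% of N4d cells at 96 h, and in 2.21% of AP cells at 1 h. The part of such reads in the values at 96 h was not tested.

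Interneurons, which enter the cortex from the ventral forebrain, were set beside the excitatory N4d neurons at 96 h within each day, again as a description. With 10 CPM in 3 of the 8 sums, 21 presynaptic and 11 postsynaptic genes were compared. On all 4 days 2 presynaptic genes (Snap25 and Nrxn3) were higher in interneurons and 3 (Stx1a, Syt4 and Syn1) lower, and of the postsynaptic genes none was higher and 4 (Nlgn1, Clstn2, Lrfn5 and Dlg2) were lower. Snap25 was barely higher at E13, at 112 against 109 CPM, and with equal weight per cell it was lower on that day (log2 ratio -0.050), as Nlgn1 was then higher at E15 (0.21). With that weight Cplx1 was higher on all 4 days (log2 ratios 0.17, 0.96, 0.041 and 0.62 from E12 to E15). The genes lower on all 4 days were then 4 presynaptic and 3 postsynaptic ones. Over all 9362 genes, 8.90% were higher and 12.8% lower on all 4 days without that weight. The median over genes of the mean log2 ratio was 0.0041 for presynaptic and -0.79 for postsynaptic genes, and -0.14 over all genes.

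Nrxn3 was at 1066, 815, 997 and 646 CPM in interneurons from E12 to E15 and at 84.3, 40.3, 53.8 and 53.8 CPM in N4d neurons. The groups were far apart, with a mean log2 ratio of 3.92 ± 0.38 (SD, n = 4 days). Clstn2 had the reverse order, at 29.8, 53.3, 23.2 and 58.0 CPM in interneurons and 222, 296, 187 and 223 CPM in N4d neurons, a ratio of -2.55 ± 0.47. Syt4 was at 166, 87.7, 162 and 96.5 CPM in interneurons and 512, 427, 713 and 458 CPM in N4d neurons, a ratio of -2.06 ± 0.30. Lrfn5 and Dlg2 had ratios of -2.53 ± 1.65 and -2.34 ± 1.53, whose spread over days was wide. Syn2, which fell in the excitatory lineage, was at 156, 0.472, 53.1 and 42.6 CPM in interneurons and at 14.1, 16.1, 4.07 and 14.1 CPM in N4d neurons, higher on 3 of 4 days. Syt1, Dnm3, Nrxn2 and Sv2a had mean log2 ratios between -0.09 and 0.49, with days on both sides of 0.

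**Figure D5:**
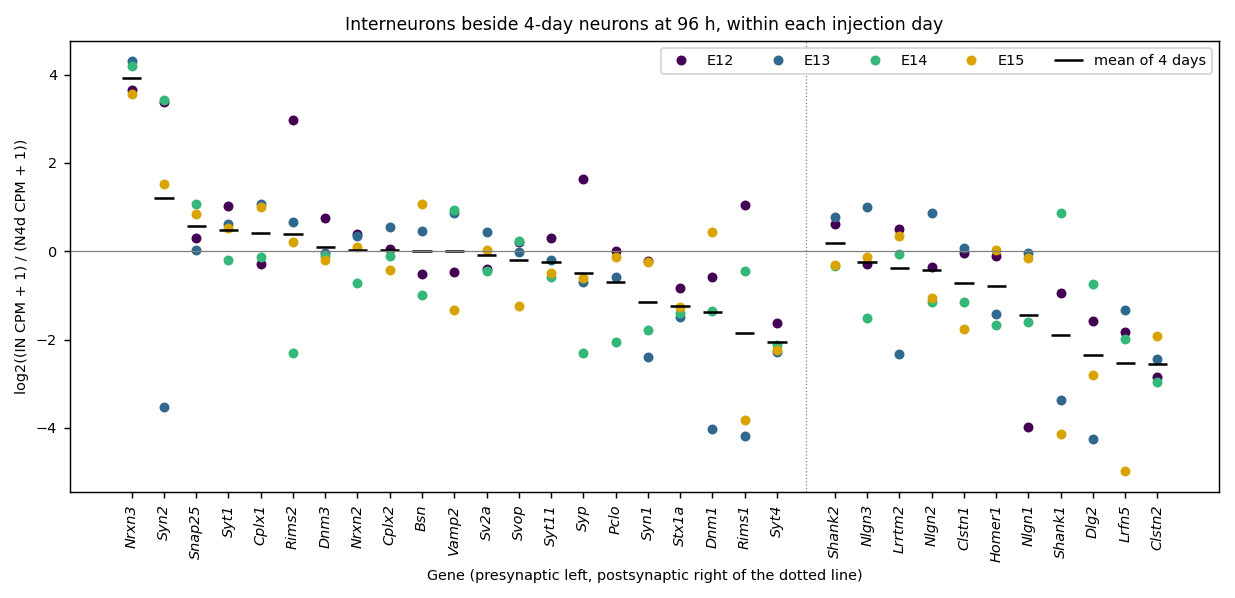
Log2 ratio of interneuron to N4d level at 96 h, with 1 CPM added to each, for the 32 compared genes, ordered by mean within the presynaptic and postsynaptic lists. Points are injection days and bars their mean: Nrxn3 lies at 3.56 or above on all 4 days, Syt4 at -1.62 or below and Clstn2 at -1.93 or below.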

How the data were processed

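Single cells were captured on a Fluidigm C1 HT circuit after sorting, amplified with SMART-Seq v4 and sequenced on a HiSeq2500, per the labels. The authors deposited whole-number counts of reads per gene and cell, not normalized, for 16441 genes and 2756 cells. The column totals match the read number in the labels (lowest ratio 0.987). The submitters' processing notes name GRCm38, TopHat2 2.0.13 and UMI-tools with no role. Which end of a transcript was counted is not given in the sources used here, so no level is compared between genes.

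Counts were summed over cells. Time contrasts used 12 lineage sums, 1 for each day and time, of the 4 classes AP, BP, N1d and N4d, with time and centred injection day in the model, and slopes used N4d (96 h), N1d (24 h) and AP (1 h) with a level and slope for each class. Tests were edgeR 4.0.16 quasi-likelihood tests (R 4.3.3, TMM scaling), adjusted by Benjamini-Hochberg over the 10210 or 10195 genes with at least 10 CPM in 3 of 12 sums, and tested on simulated data. The labels name no animal, so a p-value reflects the spread among these 12 samples alone, which may be technical. Cells were thinned to 100000 counts for shares of cells, which left out shallower cells (32 of 715 AP cells at 1 h, 55 of 633 N1d cells at 24 h, 18 of 693 N4d cells at 96 h). The 6 run codes each hold 1 collection time: at 1 h E12 with E14 and E13 with E15, later E12 with E13 and E14 with E15.

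The 36 genes and all lists were chosen with earlier results of these data known. Values in all samples are given, within each role, for the gene with the smallest p in each time contrast, every gene that fell and every gene with 50 CPM in AP cells at 1 h, and for slopes for those past the threshold or the smallest p. Genes named in the paragraphs on clusters, interneurons and shares of cells were chosen after their values were seen. From the longer lists, up to 3 genes per contrast and direction with the smallest p are named, and 1 such gene is not reported here. Those lists held 51 presynaptic and 41 postsynaptic genes in the table. Alternatives were DESeq2 1.42.0, its size factors in edgeR, no filter, all cells, main class sums, equal weight per cell, injection day as a factor, run codes as samples or as a block, and leaving out each condition. Promoter windows came from RefSeq (GRCm38.p6). Tables were handled in Python 3.11.15 with pandas 2.3.3.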

Additional observations from a re-analysis of the deposited data

Results flagged for a closer look

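Dnm3 at 96 h was at 296 CPM in E14, and the other 3 days lay between 114 and 144 CPM, so that E14 stood apart by more than Dixon's critical value for 4 samples (0.829). E14 is also the day whose 96 h neurons were mostly of the cluster N4d.late1, with 343 CPM of Dnm3, and its cluster N4d.late2 was at 412 CPM. Without E14 at 96 h the log2 change of Dnm3 from 24 h was 5.57 (adjusted p = 0.000235).

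Syn1 at 24 h was at 5.65 CPM in E15, below the other 3 days at 12.7 to 13.9 CPM by the same measure. These were 2 of 75 groups of a gene and a time with at least 10 CPM in a day, and chance alone flags about 1 in 20.

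The slope of Svop on injection day differed between AP, N1d and N4d cells (edgeR quasi-likelihood test, adjusted p = 0.00317). It rests on 88 reads of E15 AP cells at 1 h, 84 of them in 1 cell.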

How the results depend on the processing

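Across the alternative fits (20, or 19 for genes left out of the fit over run codes), no presynaptic or postsynaptic gene called in a time contrast changed sign, and the counts kept within 1.5 times of those reported but for these. At 24 h against 1 h, 1 postsynaptic gene rose, against 2 with DESeq2, 4 in main class sums, 0 with all cells and 0 with run codes as samples. Over all genes 1167 rose, against 1279, 1696, 1044 and 641 in the same order. At 96 h against 24 h, run codes as samples gave 6 presynaptic (11) and 4 postsynaptic genes (9) that rose. Over all genes 561 of 9153 rose in that fit, against 1195 of 10210. Leaving out each condition in turn gave 5 to 10 presynaptic and 1 to 2 postsynaptic genes that rose at the first step, and 9 to 12 and 5 to 10 at the second, where 1 presynaptic gene fell in each fit. In these fits 850 to 1161 of all genes rose at the first step and 815 to 1277 at the second. For AP slopes, DESeq2 called 5 presynaptic genes that rose and run code as a block 0 (0 postsynaptic), and leaving out conditions gave 0 to 3 presynaptic and 0 to 1 postsynaptic genes that rose and 0 to 1 presynaptic genes that fell. Over all genes 78 rose in the reported fit, 263 with DESeq2, 30 with the block and 44 to 100 on leaving out conditions. For N1d slopes, DESeq2 called 2 presynaptic genes that rose and 1 postsynaptic gene that fell, no filter and run code as a block gave 0, and leaving out conditions gave 0 presynaptic genes that rose and 0 to 1 postsynaptic genes that fell. Over all genes 21 rose and 18 fell in the reported fit, and 176 and 210 with DESeq2. None was called without the filter or with the block, and leaving out conditions gave 0 to 30 that rose and 0 to 25 that fell. For the difference between slopes, DESeq2 called 3 presynaptic and 2 postsynaptic genes, run code as a block 0, and leaving out conditions gave 0 to 2 and 0 to 1. Over all genes 22 were called in the reported fit, 286 with DESeq2, 0 with the block and 14 to 32 on leaving out conditions. The cause of these shifts was not tested. With injection day as a replicate block (the days shared by the times), 11 presynaptic and 1 postsynaptic genes rose at the first step and 11 and 9 at the second. Of all 10210 genes 1050 rose at the first step and 1049 at the second in that fit. The filter at 10 CPM, a choice and not a limit of depth, left 4 of the 36 genes out of these tests.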
